A study of Microcebus murinus with 18 samples.

Results

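Neurotrophins and their receptors were followed in the temporal cortex of the grey mouse lemur (Microcebus murinus), a small primate that ages in captivity. The genes asked for were the ligands BDNF and NTF3 and the receptors NTRK2, NTRK3, NGFR and SORT1, and the members were all probe sets of the human HG-U133 Plus 2.0 array annotated to 1 of these symbols. This gave 18 probe sets for 4 of the 6 genes, among 19775 genes named on the array: 2 for BDNF, 6 for NTRK2, 9 for NTRK3 and 1 for NGFR. NTF3 and SORT1 had no probe set in the annotation used and are not analysed here. A further probe set that the lists of the study name BDNF has no symbol in this annotation and was not counted. None of the 18 probe sets was annotated to a further gene.

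The animals, all born in 1 breeding colony, were 6 young adults (2 of them male), 10 old animals described as healthy (3 of them male) and 2 AD-like animals, which were old females, and each gave 1 array. Per the methods of the study the brains of the AD-like animals held amyloid plaques, which in this species arise without a transgene. The labels give an age category rather than an age in years and name no treatment. The comparison of old with young adult animals addresses healthy aging, and that of AD-like with old animals addresses the plaque-bearing brain. Per the study the AD-like animals also had cortical atrophy and dilated ventricles, and their mean age was above that of the old group. In this comparison these cannot be told apart from the plaques. With 2 AD-like animals, both female, the spread was pooled over all groups, and precision is limited by how few animals there are.

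Neurotrophins are secreted growth factors that support the survival of neurons and the strength of their synapses. BDNF, which cortical neurons release with activity, binds TrkB, the receptor tyrosine kinase encoded by NTRK2, and NT-3, the product of NTF3, prefers TrkC, encoded by NTRK3. Both receptor genes also give truncated forms without a kinase domain, and truncated TrkB is abundant in astrocytes. The uncleaved precursors bind the p75 receptor, encoded by NGFR, together with sortilin, encoded by SORT1.

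The values are linear signals that were scaled on each array to a trimmed mean of 100, so a signal is relative to the rest of its array. A probe set was kept where 3 or more of the 18 animals gave a signal of 150 or above, which left 14567 of 54613 (26.7%), and differences are given on the log2(signal + 16) scale, which understates changes of dim probe sets. The median signal of an array lay between 30.7 and 54.4. It was 47.9 to 54.4 in the 5 males, 30.7 to 48.4 in the 11 young adult and old females, and 44.3 and 53.0 in the AD-like females. On 4 arrays poly-A control RNA was taken as missing from the signal of the 3' probe set of its dap control (up to 19.0, where the 14 others gave 334 or more). These were AD-like F2, young adult M2 and the old males M1 and M2. The labels do not say which arrays received this RNA. Because human probes met lemur RNA, differences between animals were taken within a probe set, and a brighter probe set is not read as a more abundant transcript.

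Of the 18 probe sets, 11 lay above the median of the array in all 18 animals: both of BDNF, NTRK2 207152_at and 229463_at, and 7 of NTRK3. Near background, here a signal under the median of the array in 9 or more animals, were 3 probe sets: NTRK2 214680_at and NTRK3 215025_at (15 of 18 animals each) and NGFR 205858_at (12 of 18 animals). Set against the 75th percentile of the array in place of the median, 7 probe sets were near background, with NTRK2 221795_at, 221796_at and 236095_at and NTRK3 215311_at added. The low-signal filter kept 13 of the 18: both of BDNF, 4 of NTRK2 and 7 of NTRK3. The 5 probe sets that were not kept were NTRK2 214680_at and 221796_at, NTRK3 215025_at and 215311_at, and NGFR 205858_at, for which values come from a fit over all 54613 probe sets.

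Members were called here where the unadjusted p in limma was under 0.05. In the comparison of old with young adult animals 1 of the 13 kept probe sets was higher and 0 were lower, against 3.49% higher, 2.42% lower and 5.91% in either direction over all kept probe sets. That member, NTRK2 236095_at, reached the filter signal of 150 in old animals only, so its call is not independent of the filter. In AD-like against old animals 2 of 13 were lower and 0 higher, both of NTRK3, against 3.62% lower, 1.22% higher and 4.84% in either direction. In AD-like against young adult animals the same NTRK3 probe sets were lower and 0 members higher, against 3.21% lower, 1.13% higher and 4.34% in either direction, and these comparisons share the 2 AD-like animals. After adjustment 0 members passed in any of the 3 (limma, smallest adjusted p of 0.836, 0.972 and 0.998), against 0%, 0.00686% and 0% of all kept probe sets. The median log2 difference of the 13 members was 0.03, -0.35 and -0.33 in the 3 comparisons, beside 0.03, -0.02 and 0.01 over all kept probe sets. Across the 3 groups limma's F test called 1 member, NTRK3 217033_x_at, against 5.07%, and 0 after adjustment.

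**Figure D1:**
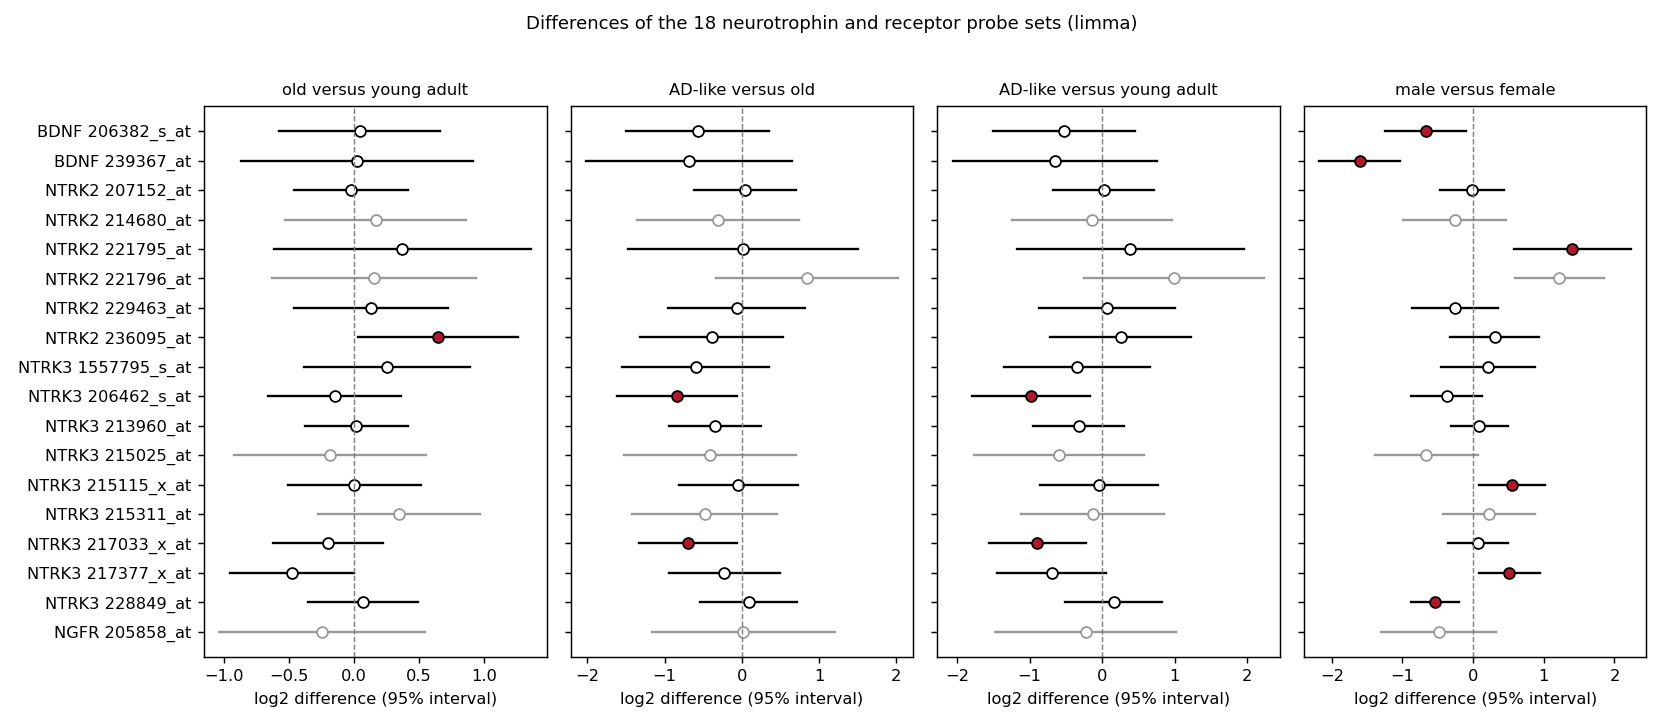
Log2 difference with its 95% interval (horizontal axis) of the 18 probe sets (vertical axis) in 4 comparisons. Red points had an unadjusted p under 0.05 among kept probe sets, and grey marks were not kept. Old against young adult intervals all include 0 but for NTRK2 236095_at, and the NTRK3 probe sets spread from -0.84 to 0.09 between AD-like and old animals.

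BDNF, the ligand of TrkB, was read by 2 probe sets that rose and fell together over the 18 animals (Pearson r = 0.72). The signal of 206382_s_at ran from 354 over a median of 547 to 990.0 in young adults and from 224 over 607 to 973 in old animals, and it was 421 and 351 in the AD-like females. The signal of 239367_at ran from 153 over a median of 305 to 594 in young adults and from 69.9 over 382 to 763 in old animals, and it was 212 and 155 in the AD-like females. Young adult and old animals overlapped over nearly their whole range, and the AD-like values lay in the lower part of these ranges, except that AD-like F2 (351) was just under the lowest young adult (354) in 206382_s_at.

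Ordered by group mean, old animals came first, young adults next and AD-like animals last in both BDNF probe sets. Means were 628 ± 245 (SD, n = 10), 593 ± 229 (SD, n = 6) and 386 ± 49.5 (SD, n = 2) for 206382_s_at, and 369 ± 223, 327 ± 167 and 183 ± 40.0 for 239367_at. Old and young adult animals, neighbours in that order, differed by a log2 of 0.05 (95% interval -0.57 to 0.67) and 0.03 (-0.86 to 0.91). AD-like animals and young adults, the next neighbours, differed by -0.53 (-1.50 to 0.45) and -0.66 (-2.06 to 0.75). The intervals of both steps thus held values of both signs. AD-like and old animals, the ends of the order, differed by -0.57 (-1.50 to 0.36) and -0.68 (-2.02 to 0.65) (limma, adjusted p = 0.972 for both). In bulk tissue a lower signal from fewer cells that make a transcript and from less RNA in each cell cannot be told apart.

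**Figure D2:**
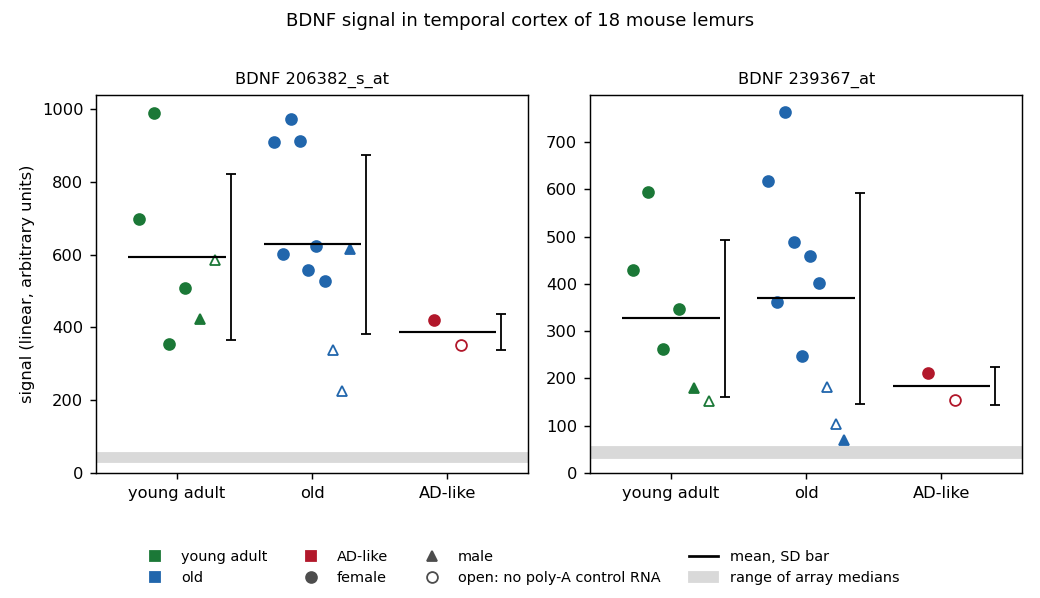
Linear signal (vertical axis) of the 2 BDNF probe sets in each animal by group (horizontal axis), with the group mean and an SD bar. In 239367_at the 5 males (triangles) lie between 69.9 and 182, below all 11 young adult and old females, and the AD-like females are at 212 and 155.

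The AD-like animals are both female, and males and females differed in BDNF signal, so the groups were also set against each other among the 13 females. In 239367_at the 7 old females ran from 248 over a median of 459 to 763 and the 4 young adult females from 263 over 388 to 594. Both AD-like females lay below every young adult and old female in this probe set, which held for 2.53% of all kept probe sets, and no other member did so. In 206382_s_at both lay below every old female (528 to 973), and against the lowest young adult female (354) AD-like F1 was higher (421) and AD-like F2 lower (351). With NTRK3 217033_x_at this made 3 of 13 members in which both lay below every old female, against 6.74% of all kept probe sets.

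Among females 4 of the 13 kept members were called lower in the AD-like animals than in the old and 0 higher, against 8.1% lower and 12% in either direction over all kept probe sets. They were both BDNF probe sets, with log2 differences of -1.25 ± 0.39 (SE) for 239367_at and -0.86 ± 0.37 for 206382_s_at, and NTRK3 206462_s_at and 217033_x_at. After adjustment 0 members passed (limma, smallest adjusted p of 0.282), against 0.0755% of all kept probe sets. The signal of 239367_at was also lower than in young adult females, by a log2 of -1.05 ± 0.42 (limma, adjusted p = 0.579), 1 of 3 members among the 13 so called, against 5.22% lower and 8.35% in either direction, and 0 members against 0.0206% after adjustment. Against old females the log2 difference of 239367_at was -1.04 without AD-like F2, an array that lacked poly-A control RNA, and -1.45 without AD-like F1. Each of these rests on 1 AD-like animal. With the median signal of the array as a covariate it was -0.77, and that of 206382_s_at -0.43 (unadjusted p = 0.0667 and 0.269 in limma). The NTRK3 differences were then -1.11 for 206462_s_at and -0.69 for 217033_x_at (unadjusted p = 0.0235 and 0.0891 in limma).

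Males had lower BDNF signal than females in both probe sets. In 239367_at the 5 males gave 179 (young adult M1), 153 (young adult M2), 69.9 (old M3), 104 (old M2) and 182 (old M1), and the 11 young adult and old females 248 to 763 with a median of 429. No male overlapped these females, which held for 2 of 13 members, with NTRK3 228849_at, against 0.851% of all kept probe sets. With group in the model the log2 difference of males from females was -1.61 ± 0.27 (SE), or 0.329-fold, in 239367_at (limma, adjusted p = 0.00889) and -0.67 ± 0.27 in 206382_s_at (adjusted p = 0.108), where males ran from 224 to 614 and young adult and old females from 354 to 990.0. This comparison was added after the values had been seen.

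Sex moved with other features of the arrays. Of all kept probe sets 29.2% differed between males and females at an unadjusted p under 0.05 (18.1% lower and 11.1% higher in males) and 10.7% after adjustment, and 3 of the 5 male arrays carried no poly-A control RNA. Of the 13 kept members 6 differed, 3 lower and 3 higher, and 3 passed after adjustment. Within the 14 arrays with poly-A control RNA, 2 of them male, the difference of 239367_at was -1.79 (limma, adjusted p = 0.0864), and that of 206382_s_at was -0.33 (adjusted p = 0.646). With the median signal of the array as a covariate they were -1.06 (adjusted p = 0.562) and -0.21 (adjusted p = 0.885). There 3 members were called in place of 6, and over all 14567 kept probe sets 1267 in place of 4253. The log2 difference of 239367_at lay between -1.79 and -1.06 over 29 alternatives, with an unadjusted p under 0.05 in all 29 and an adjusted p from 0.00273 to 0.562. The interaction of sex and age was -0.72 (-1.89 to 0.46) for 239367_at and -0.69 (-1.88 to 0.49) for 206382_s_at, and 0 of 13 members were called there against 4.85%.

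Of 7 kept neuron markers, taken from a list, 2 were lower and 0 higher in males at an unadjusted p under 0.05 in limma, beside 18.1% lower over all kept probe sets, and of all 15 kept probe sets of these genes 5 were lower and 2 higher. The 2 were SNAP25, a vesicle fusion protein, at a log2 difference of -1.47 (limma, adjusted p = 0.00924) and STMN2, a neuronal growth protein, at -0.88 (adjusted p = 0.0374). The summed signal of the 7 markers ran from 15392 to 34985 in the 5 males and from 23170 to 57931.7 in the 13 females. Of 6 kept astrocyte markers 2 were lower and 2 higher in males at an unadjusted p under 0.05 in limma, with sums of 5950 to 9115 in males and 5042 to 19174.5 in females. Of 5 kept oligodendrocyte markers 2 were lower and 1 higher. Of all 12 kept probe sets of the astrocyte genes 3 were lower and 2 higher. Of all 10 of the oligodendrocyte genes 2 were lower and 3 higher. These stand beside 18.1% lower and 11.1% higher over all kept probe sets. The part of cell makeup, of poly-A control RNA and of the level of the array in the BDNF result was not tested beyond these values. Between young adult, old and AD-like animals 0 of the kept neuron, astrocyte, oligodendrocyte, precursor, microglia, vessel and red blood cell markers differed at an unadjusted p under 0.05 with 1 probe set per gene. Of all kept probe sets of these genes, 1 of the 12 astrocyte ones was lower in each of the 3 comparisons, and 0 of the other lists differed. Over all kept probe sets 5.91% (old against young adult), 4.84% (AD-like against old) and 4.34% (AD-like against young adult) differed. Of 6 microglia markers only P2RY12 was kept, with 4.28 to 266 over the 18 animals.

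BDNF signal fell as the median signal of the array rose. Over the 18 animals the correlation of the log2 values was r = -0.80 and rho = -0.84 for 239367_at (permutation p = 6e-05 and 8e-05) and r = -0.68 and rho = -0.63 for 206382_s_at (permutation p = 0.002 and 0.00539). Without old F1 and old F3, the animals farthest from the middle, r was -0.73 and -0.56. Over the 14 arrays that held poly-A control RNA r was -0.73 and -0.67, and among the 13 females -0.75 for 239367_at and -0.73 for 206382_s_at. In limma with the array median alone, without group or sex in the model, 3 of the 13 members tested this way passed after adjustment. They were both of BDNF (limma, adjusted p = 0.00137 for 239367_at and 0.015 for 206382_s_at) and NTRK2 221795_at (adjusted p = 0.032), against 24.2% of all kept probe sets. The relation was thus common on these arrays, and for BDNF it was also found among females alone.

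**Figure D3:**
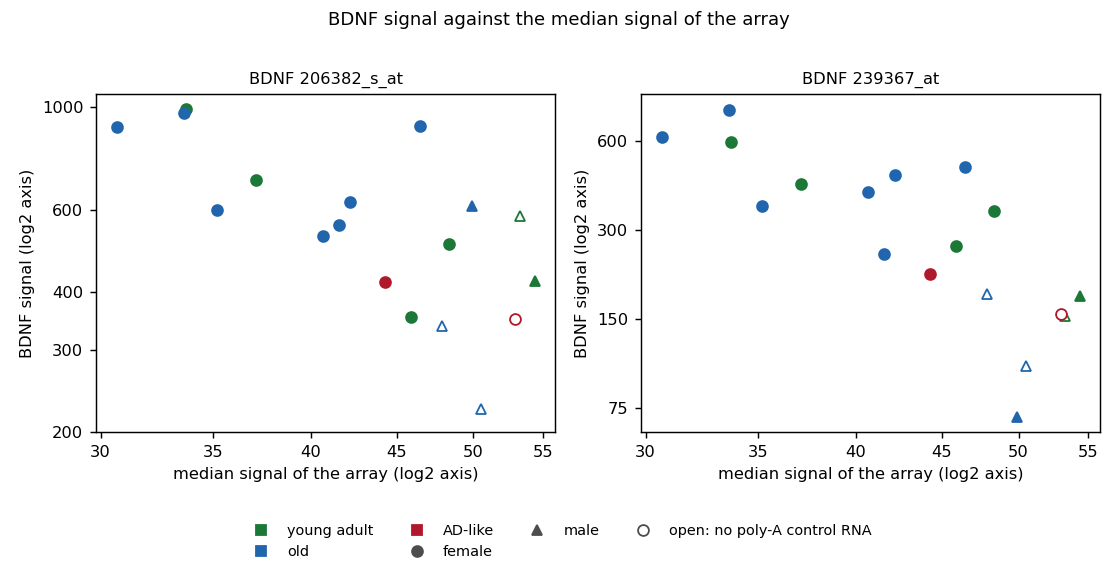
BDNF signal (vertical axis, log2 scale) against the median signal of the array (horizontal axis, log2 scale) for 18 animals, with males as triangles and arrays without poly-A control RNA open. The 5 males, AD-like F2 and the female young adult F4 (48.4) sit at array medians of 47.9 and above, and BDNF falls from left to right in both panels.

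NTRK2 encodes TrkB, the receptor for BDNF. In 207152_at the signal ran from 579 over a median of 774 to 1284 in young adults and from 525 over 824 to 971 in old animals, and it was 1015 and 652 in the AD-like females. In 229463_at it ran from 245 over 398 to 1253 in young adults and from 314 over 503 to 668 in old animals, and it was 570.3 and 391 in the AD-like females. All groups overlapped in both, with young adult F1 highest in each, and these probe sets correlated at r = 0.59. The group means were in the order AD-like, young adult, old in 207152_at and young adult, old, AD-like in 229463_at. Between neighbours the 95% interval of each log2 difference held values of both signs. The differences of 207152_at were -0.02 (-0.46 to 0.42) between old and young adult animals and 0.04 (-0.62 to 0.70) between AD-like and old animals.

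A higher NTRK2 signal in old than in young adult animals was found in the dimmer 236095_at. This probe set reached 150 in 4 of 10 old animals, 0 of 6 young adults and 0 of 2 AD-like females. It thus passed the low-signal filter only through the group in which it was higher, so its call is not independent of the filter. The signal ran from 29.5 over a median of 74.2 to 128 in young adults and from 39.1 over 123 to 213 in old animals. It was 73.3 and 107 in the AD-like females. The ranges overlapped, and 6 of 10 old animals lay above the 75th percentile of their array against 1 of 6 young adults. The log2 difference was 0.65 ± 0.30 (SE), or 1.57-fold (95% interval 0.03 to 1.26), with an unadjusted p of 0.0403 and an adjusted p of 0.836 in limma. Under 32 alternatives the direction held in all 32 and the unadjusted p was under 0.05 in 19. It was not under 0.05 without any 1 of young adult F2, F3 and M2 and old F2, F4, F6, M1 and M3, and the difference was smallest, at 0.46, without young adult F3 (unadjusted p = 0.137). With the 3' to 5' ratio of GAPDH, a measure of RNA integrity, as a covariate it was 0.50 (unadjusted p = 0.111), and with the replicate block 0.66 (unadjusted p = 0.0601). The log2 GAPDH ratio was 0.31 ± 0.20 (SD, n = 6) in the young adults and 0.59 ± 0.53 (SD, n = 10) in the old group, and its part in the result was not tested further.

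The probe sets 221795_at and 221796_at gave the widest relative ranges of NTRK2. The former ran from 7.89 over 93.0 to 259 in young adults and from 37.3 over 111 to 246 in old animals, with 54.5 and 202 in the AD-like females. It was higher in males, at 130.1 to 259, than in young adult and old females, at 7.89 to 181, with overlap, and the log2 difference was 1.40 ± 0.40 (limma, adjusted p = 0.0323). In 221796_at, which was not kept, the 5 males (88.3 to 159.5) lay above all young adult and old females (4.27 to 74.1), which held for 0.403% of all 54613 probe sets, and the AD-like females gave 94.9 and 162. The log2 difference there was 1.22 ± 0.30, short of the threshold (limma over all probe sets, adjusted p = 0.0518). With the median signal of the array as a covariate the difference of 221795_at was 0.86 (adjusted p = 0.664). The near-background probe set 214680_at ran from 5.87 to 78.6 over young adult and old animals and was 9.08 and 21.9 in the AD-like females.

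**Figure D4:**
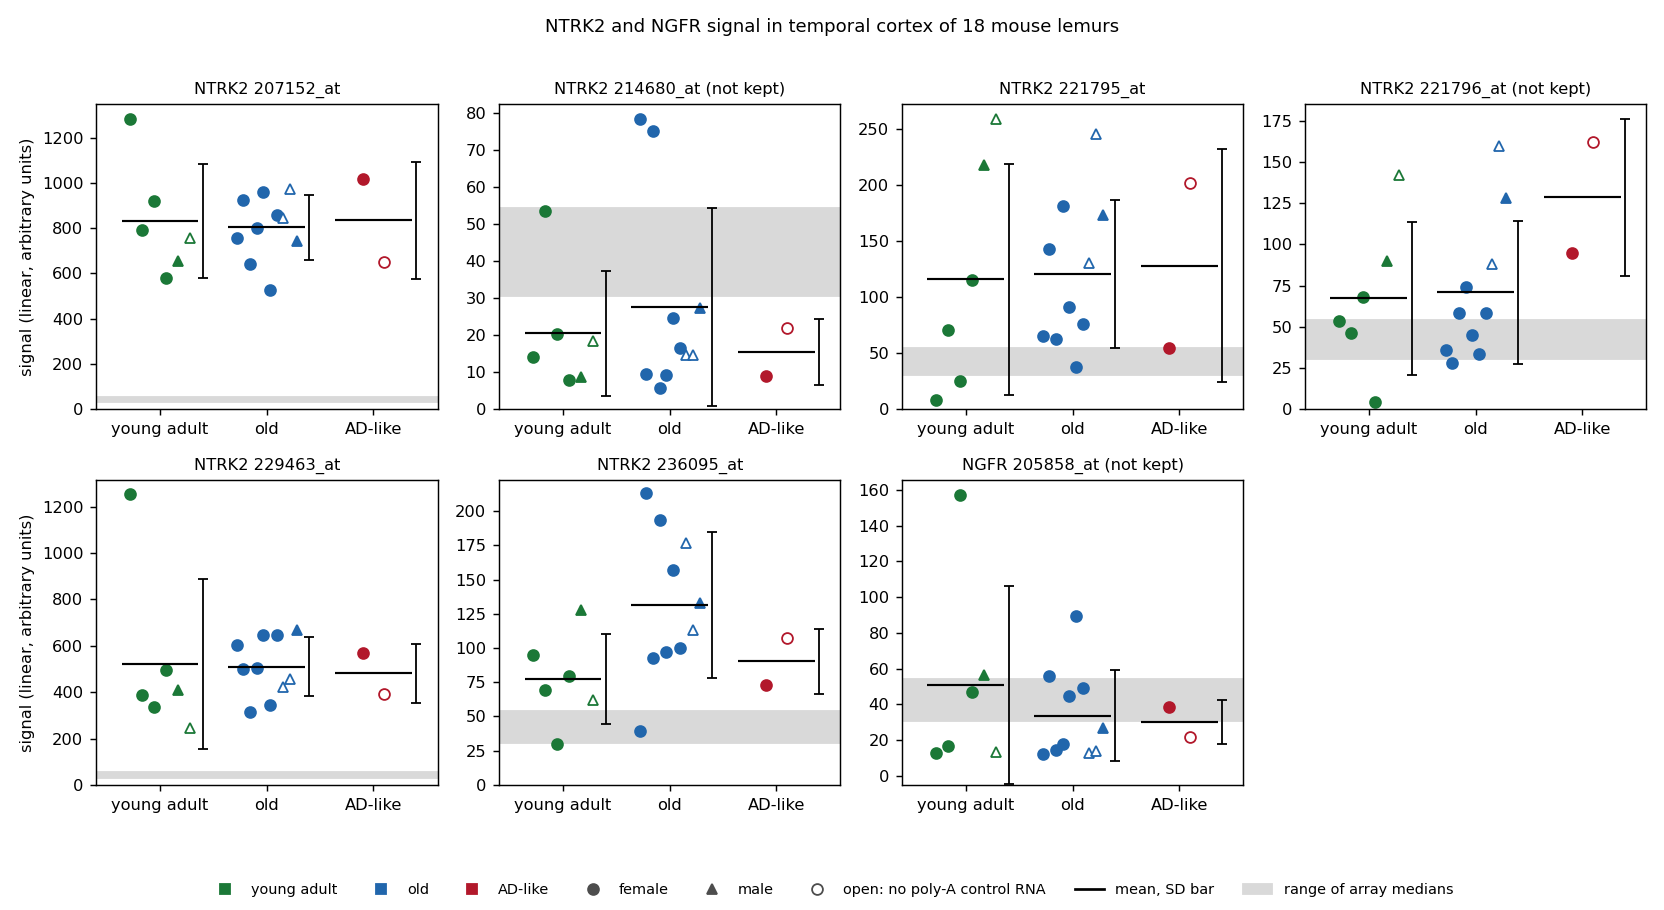
Linear signal (vertical axis) of the 6 NTRK2 probe sets and the NGFR probe set in each animal by group (horizontal axis), with the group mean and an SD bar. Signals of 214680_at and NGFR 205858_at lie mostly within or under the range of array medians (grey, 30.7 to 54.4), and the groups overlap in every panel.

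NTRK3 encodes TrkC, the receptor for NT-3, and its 9 probe sets moved in different ways. Over the 18 animals the 21 pairs of its 7 kept probe sets correlated at a median of r = 0.01 (-0.63 to 0.48), and the 6 pairs of NTRK2 at 0.00 (-0.38 to 0.59), beside 0.15 over 5394 pairs of probe sets of the same gene in general. These are descriptions over animals that share each array. Probe sets whose names end in x_at may also take up transcripts of other genes, and those ending in s_at match several transcripts, so for this gene each probe set is described by itself.

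Lower NTRK3 signal in the AD-like females was seen in 206462_s_at and 217033_x_at. In 217033_x_at young adults ran from 216 over a median of 434 to 572 and old animals from 295 over 344 to 422, and the AD-like females gave 191 and 231. Both AD-like animals lay below every old animal, which held for 1 of 13 members against 1.63% of all kept probe sets, and young adult F3 (216) lay between them. The log2 difference from old animals was -0.70 ± 0.30 (SE), or 0.616-fold (unadjusted p = 0.0319, adjusted p = 0.972 in limma), and that from young adults -0.90 ± 0.32 (unadjusted p = 0.0109, adjusted p = 0.998). In 206462_s_at young adults ran from 178 over 239 to 316 and old animals from 106 over 235 to 318, and the AD-like females gave 158 and 78.9. Here old F3 (106) and old M1 (127) lay between the AD-like values, and every young adult lay above both.

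The log2 difference of 206462_s_at was -0.84 ± 0.37 from old animals, or 0.559-fold (unadjusted p = 0.0345, adjusted p = 0.972 in limma), and -0.99 ± 0.39 from young adults (unadjusted p = 0.0199, adjusted p = 0.9995). Without AD-like F2 these fell to -0.40 (unadjusted p = 0.422) and -0.55 (unadjusted p = 0.29). For 217033_x_at the difference from old animals was -0.82 without AD-like F2 (unadjusted p = 0.063) and -0.57 without AD-like F1 (unadjusted p = 0.185), and that from young adults was -0.77 without AD-like F1 (unadjusted p = 0.0884). The study's own lists, chosen on these animals, hold 217033_x_at and 217377_x_at, so the direction of these is not independent evidence.

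The other kept NTRK3 probe sets differed less or not in 1 direction between these groups. In 228849_at the AD-like females gave 547 and 501 against 299 over a median of 541 to 660.2 in old animals and 373 over 491 to 582 in young adults, a log2 difference from old animals of 0.09 (-0.54 to 0.72). In 213960_at they gave 801 and 852, below every young adult (972 to 1218) and within the old range (653 to 1413), with a difference from old animals of -0.35 (-0.94 to 0.25). In 1557795_s_at they lay far apart, at 291 and 76.8, against 132 to 342 in old and 69.6 to 375 in young adult animals. In 215115_x_at they gave 251 and 205, inside the range of old animals (169 to 349) and of young adults (113 to 341).

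A lower signal with age, short of the threshold, was found in 217377_x_at. Young adults ran from 295 over a median of 321 to 511 and old animals from 147 over 264 to 395, and the AD-like females gave 240.4 and 194, below every young adult. Together with 206462_s_at and 213960_at this made 3 of 13 members in which both AD-like females lay below every young adult, against 2.97% of all kept probe sets. The log2 difference of old from young adult animals was -0.47 ± 0.23 (SE), with an unadjusted p of 0.0524 and an adjusted p of 0.836 in limma. Among females all 7 old animals (147 to 273) lay below all 4 young adults (295 to 469), which held for 1 of 13 members against 0.213% of all kept probe sets. The log2 difference among females was -0.61 ± 0.24 (limma, adjusted p = 0.963), and this was the 1 member called there, against 1.74% lower and 4.63% in either direction. Old males gave 323 to 395, and young adult males 314 and 511.

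Males differed from females in 3 NTRK3 probe sets and not in 1 direction. In 228849_at all 5 males (299 to 408) lay below all 13 females (467 to 660.2), which held for 1 of 13 members against 0.199% of all kept probe sets, with a log2 difference of -0.54 ± 0.16 (limma, adjusted p = 0.0415). In 215115_x_at and 217377_x_at males were higher, by 0.56 ± 0.22 (adjusted p = 0.106) and 0.51 ± 0.21 (adjusted p = 0.107). Over the 18 animals 228849_at correlated at r = -0.63 with 215115_x_at and r = -0.62 with 217377_x_at. With the median signal of the array as a covariate the difference of 228849_at was -0.57 (adjusted p = 0.562 in limma). It was -0.68 (adjusted p = 0.207) within the arrays with poly-A control RNA signal. The features of the male arrays given for BDNF hold here too.

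The remaining NTRK3 probe sets were dim. In 215025_at 15 of 18 animals lay under the median of their array, with young adult F2 at 114 and old F1 at 96.5 as the highest. In 215311_at young adults ran from 20.0 to 106 and old animals from 26.7 to 124, and the interaction of sex and age was -1.48 ± 0.58 (limma over all probe sets, adjusted p = 0.919).

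**Figure D5:**
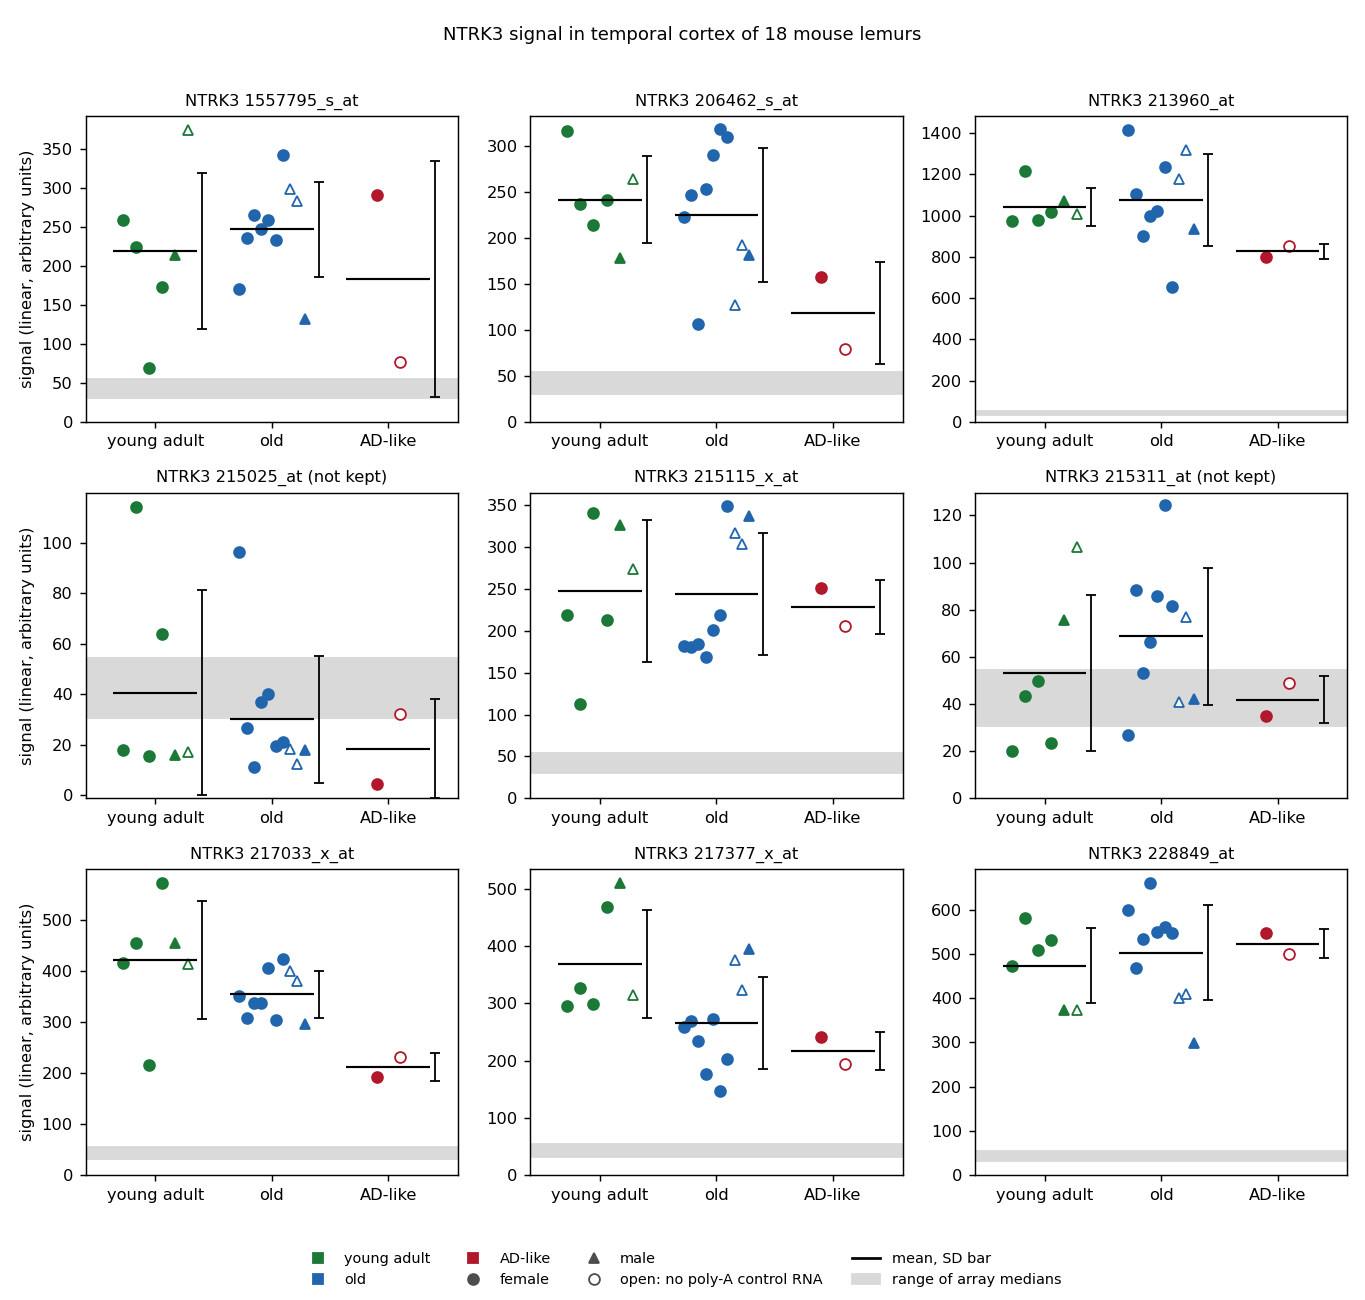
Linear signal (vertical axis) of the 9 NTRK3 probe sets in each animal by group (horizontal axis), with the group mean and an SD bar. Both AD-like females lie below all old animals in 217033_x_at (191 and 231), and all males lie below all females in 228849_at.

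NGFR encodes the p75 receptor, which in the healthy adult cortex is known mainly from the fibres of basal forebrain neurons that reach it. Its probe set 205858_at was above the median of the array in 2 of 6 young adults, 4 of 10 old animals and 0 of 2 AD-like females. Signals ran from 13.0 over 31.9 to 157 in young adults and from 12.1 over 22.2 to 89.5 in old animals, with 38.8 and 21.5 in the AD-like females. The 95% intervals of all log2 differences held values of both signs (old from young adult animals -0.24, -1.03 to 0.55). At this level a difference in NGFR was not detectable.

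The wider pathway was read from 5 lists, each with 1 kept probe set per gene. Of other neurotrophins and their receptors 3 of 7 genes were kept, all sorting receptors related to sortilin. Of genes for the processing and secretion of proneurotrophins 4 of 12 were kept, of Trk adaptors and near signalling 17 of 30, of p75 partners and near signalling 16 of 23, and of genes that respond to Trk signalling 15 of 18. The median log2 differences of old from young adult animals were 0.26, 0.19, 0.02, 0.04 and -0.15 in this order, beside 0.03 over all kept probe sets, and 2 of the 55 genes differed at an unadjusted p under 0.05, a share no higher than the 5.91% of all kept probe sets. They were SORL1, the sorting receptor known as a risk gene in Alzheimer's disease, at 0.55 ± 0.26 (SE), and BEX3, which binds the cell death domain of p75, at 0.56 ± 0.25 (limma, adjusted p = 0.836 for both).

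Between AD-like and old animals the list medians were 0.14, 0.30, -0.14, -0.12 and -0.24, beside -0.02 over all kept probe sets. Of the 55 genes 1 was called, against 4.84% of all kept probe sets: PTPRF, a receptor phosphatase known to associate with TrkB, was lower. Its signal was 249 ± 124 (SD, n = 6) in young adults and 219.5 ± 151 (SD, n = 10) in old animals and 38.5 and 11.4 in the AD-like females, both under the median of their array (44.3 and 53.0) and so near background. The fitted log2 difference, which rests on these values, was -2.31 ± 0.64 from old animals (limma, adjusted p = 0.628) and -2.62 ± 0.68 from young adults (adjusted p = 0.46). Of the genes that respond to Trk signalling 11 of 15 had a lower mean in the AD-like animals than in the old, beside 51.9% of all kept probe sets, and 0 of them were called. Against young adults 4 of the 55 were called, PTPRF included, beside 4.34%. LINGO1 (-0.83 ± 0.36) and RTN4R (-0.78 ± 0.37), partners of p75 in a receptor for myelin inhibitors of axon growth, were also lower, and CADPS2 (0.83 ± 0.39), which aids the release of vesicles that carry BDNF, was higher (limma, adjusted p = 0.9995 for all 3).

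Between males and females the lists held more calls, as did all probe sets. Of genes that respond to Trk signalling 6 of 15 were lower and 0 higher in males, led by EGR3, an activity-driven transcription factor, at -1.03 ± 0.21 (limma, adjusted p = 0.0128), and HOMER1, a synaptic scaffold, at -0.94 ± 0.27 (adjusted p = 0.0337). Of Trk adaptors and near signalling 7 of 17 were lower and 1 higher, led by CDH2, the neuronal cadherin, at -1.10 ± 0.22 (adjusted p = 0.0124) and PIK3R1, a subunit of PI3 kinase, at -1.36 ± 0.31 (adjusted p = 0.0174). Of p75 partners 6 of 16 were lower and 1 higher, led by MAPK8, the stress kinase JNK1, at -1.13 ± 0.27 (adjusted p = 0.0192). PCSK5, a protease that cleaves proneurotrophins, was lower by -1.32 ± 0.28 (adjusted p = 0.0135). These shares stand beside 18.1% lower and 11.1% higher over all kept probe sets.

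The genes whose pattern over the 18 animals was most like the brightest kept probe set of a member were taken from 8657 genes as a description. For BDNF 206382_s_at they were PTOV1 (r = 0.87), MTCH2 (r = 0.85) and LHX2 (r = 0.84). For NTRK2 207152_at they were RPAP2 (r = 0.69), FBXW11 (r = 0.69) and PLA2G6 (r = 0.68), and for NTRK3 213960_at EFCAB14 (r = 0.75), GLMP (r = 0.67) and POLR1B (r = 0.66). All points share the level of their array.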

How the data were processed

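Temporal cortex RNA of 18 animals was hybridized to human arrays, 1 for each animal. The authors deposited linear intensity values from GCOS 1.2, scaled to a trimmed mean of 100 (checked here with 2% trimmed at each end), so a gain in bright transcripts lowers the others. Detection calls were not used. A genome build is not given in the sources used here. Probe sets were named from the platform annotation, and of 14567 kept 12435 carried 1 gene symbol, 576 several and 1556 none. The 62 controls were left out. No array was present more than once (highest Spearman correlation between arrays 0.89).

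On the log2(signal + 16) scale limma 3.58.1 in R 4.3.3 compared the groups in 1 model of 3 groups on all animals, with Benjamini-Hochberg adjustment over all kept probe sets and a threshold of 0.05, beside unadjusted p values. The fit was also run on simulated data with planted differences. Their noise was independent for each probe set, so this run cannot show how the fit deals with differences shared across an array. Correlations with the array used 100000 two-sided permutations. Nothing in the labels pairs animals: of 10 pairs with the same label number 7 deviated together (r over 0.1). The members and lists were chosen with earlier results of these data known. Every member was described. From each list up to 4 genes with the smallest unadjusted p under 0.05 were named, with the kept probe set of highest mean for each gene, and 3 genes most like each member. Alternatives were the offset (1 and 50), normalization, filter, array weights, sex, females only, the label number as a block, poly-A control RNA, GAPDH ratio, the t-test and analysis of variance of the methods, and leaving out each animal. The comparison of sexes, the level of the array and single AD-like animals among females were added after seeing the data.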

Additional observations from a re-analysis of the deposited data

Results flagged for a closer look

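Of 36 sets of signals, for the 18 probe sets in the 6 young adult and the 10 old animals, 3 held 1 animal far from the others by Dixon's ratio, the gap to the nearest animal divided by the range, and chance gives about 1 in 20. In NTRK3 217033_x_at young adult F3 was lowest (216, the next 413, ratio 0.662). In NTRK2 236095_at old F1 was lowest (39.1, the next 93.0, ratio 0.478), and in NTRK3 215025_at old F1 was highest (96.5, the next 40.0, ratio 0.494). The array of old F1 had the lowest median signal, 30.7.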

How the results depend on the processing

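Counts are of members at an unadjusted p under 0.05 in limma unless named, and 0 members passed after adjustment in the 3 group comparisons as reported. Old against young adult animals gave 1 member, and 2 with quantile normalization, with sex as a covariate, with poly-A presence as a block and with the methods' t-test, and 0 with the replicate block and with the GAPDH ratio as a covariate. The 1 member was NTRK2 236095_at, higher, which did not pass the stricter filter. There, with array weights, among females and within arrays with poly-A control RNA the 1 member was NTRK3 217377_x_at, lower. Leaving out each animal gave 0 to 2. AD-like against old animals gave 2, and 3 with sex as a covariate, 4 among females only, 0 within arrays with poly-A control RNA, and 1 with poly-A presence as a block, with the array median as a covariate and with the methods' t-test. Leaving out each animal gave 0 to 2, with 0 without AD-like F2. NTRK3 217033_x_at was replaced among the 2 by BDNF 239367_at with the replicate block and by NTRK3 1557795_s_at without AD-like F1. AD-like against young adult animals gave 2, and 3 with sex as a covariate, among females, with poly-A presence as a block and with the array median as a covariate, 4 with the replicate block, 1 within arrays with poly-A control RNA, and 1 to 2 leaving out each animal. Across the 3 groups the count was 1, and 0 with no filter, with array weights and within arrays with poly-A control RNA, 2 with the stricter filter, among females, with the replicate block, with the array median as a covariate and with the methods' analysis of variance, and 3 with sex as a covariate, with 0 to 2 leaving out each animal. Males against females gave 6, and 3 with the array median as a covariate and 4 to 7 leaving out each animal. The interaction of sex and age gave 0, and 1 with no filter and 0 to 1 leaving out each animal. Near background were 3 members, and 7 with the 75th percentile of the array. Over all 14567 kept probe sets old against young adult animals gave 861 calls, and 1105 with sex as a covariate. AD-like against old animals gave 705, and 1605 with sex as a covariate, 1751 among females and 756 with the array median as a covariate. AD-like against young adult animals gave 632, and 1196 with sex as a covariate, 1217 among females and 1849 with the replicate block. Males against females gave 4253, and 1267 with the array median as a covariate. The cause of these moves was not tested.

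The label numbers name different animals, so the replicate block is no pairing: of 10 pairs 7 correlated over 0.1 (r from -0.27 to 0.47). Of the single differences 1473 values kept their side and direction, 41 lost and 27 gained an unadjusted p under 0.05, 130 without a call moved, and 0 called values changed sign. The 2 AD-like animals, the signal near background and probes made for human RNA limit all of these results.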
